A study of Mus musculus with 38 samples.

Results

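The genes described here are leukocyte and immune checkpoint genes in mouse kidney tumours. They are 45 symbols listed by role: the pan-leukocyte receptor and its lineage factor, T, B and NK cell genes, checkpoint receptors and their ligands, and genes of macrophages, dendritic cells and neutrophils. Each symbol was looked up in the gene table of the series, and 44 were found among its 21705 rows. Spi1 was not listed under that symbol and was skipped. Messenger RNA of 38 libraries was sequenced from normal kidney, from tumours of 3 genotypes and from cell lines derived from tumours of those genotypes. The 3 MYC tumour libraries came from mice in which the Ksp promoter of renal tubule cells drove rtTA, and doxycycline (Dox) in the chow then switched on Tet-O-MYC. The 3 VM tumour libraries came from mice that carried these alleles together with Vhl deletion in the same tubule cells through a tamoxifen-activated Ksp-driven Cre. The 3 VIM tumour libraries came from mice that also lacked Ink4a/Arf in every cell of the body, leukocytes included. All tumours were kept on Dox, and the 5 normal kidneys were wild type and had vehicle. Ages at collection of these animals were not given in the sources used here. One line per genotype gave the cell libraries, with 4 kept on Dox and 4 after Dox withdrawal in each line, so that replicates within a line are cultures of 1 tumour's cells.

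Leukocytes are recognised in bulk tissue RNA by transcripts that other cells make little of. Ptprc encodes CD45, the phosphatase on the surface of nearly all leukocytes, whereas the CD3 chains, CD8 and the CD79 chains belong to the antigen receptors of T and B cells. Macrophages are read through lysosomal, complement and pattern recognition genes. Checkpoint genes such as Cd274, which encodes PD-L1, and Ctla4 restrain T cells, and PD-L1 can be made by epithelial cells as well as by leukocytes. In bulk tissue, fewer cells of a type and less RNA per cell cannot be told apart. The cultured lines served as the reference without leukocytes, although some listed genes, Ptprc among them, were read in them as given below.

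Values below are normalized signals in units, which the authors scaled to an upper quartile of 1000 in each library. Estimated totals were 12.4 to 36.6 M reads in the cell libraries, 11.8 to 15.5 M in kidney and 8.22 to 15.4 M in the tumours. A signal of 3 reads corresponded to 1.16 to 5.65 units, and values at or under it are treated as not separable from 0. MYC tumour libraries 2 and 3 carry the same number, 2983, in their titles and were averaged before testing, which left 2 MYC samples. The MYC line carries that number as well, and the VM line carries 3055, the number in the title of VM tumour 2. Kidneys 1 and 3 have titles starting with B6, and the other 3 have titles starting with KT. The sources do not say what KT stands for. A gene was called when its adjusted p (limma, Benjamini-Hochberg over all genes tested) was under 0.05 and its absolute log2 change was over 1, where a log2 change is that of signal + 1. Nothing in the labels says that the kidneys or tumours of a group came from separate litters, and the p-values measure the spread between these samples.

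The labels were checked against the deleted genes and against markers of other cell types. Vhl was 612 to 772 units in kidney and 468 to 559.7 in MYC tumours, against 40.2 to 79.9 units in VM tumours, 219 to 312 in VIM tumours and 8.32 to 38.8 in the VM and VIM cells. Cdkn2a, the gene of Ink4a and Arf, was 3392 to 4347 units in VM tumours and 30.1 to 95.5 in VIM tumours. It was 59.3 to 2872 units in MYC tumours and 0 to 3.8 in kidney, where the gene was not deleted, so a low signal does not by itself identify the deletion. The deleted part of Vhl or Cdkn2a was not checked separately. The 6 renal epithelium genes summed to 22886 to 33452 units in kidney and to 15501 to 24096, 13481 to 17988 and 9577 to 22949 units in MYC, VM and VIM tumours. Proximal tubule genes fell in every tumour genotype, with 6 of 6 called lower in each, and their sum was 214829 to 253086 units in kidney against 2745 to 10232, 4779 to 6281 and 1527 to 6253 units. Slc22a6, an organic anion transporter of the proximal tubule, fell in VM tumours (log2 change -13.60 ± 0.47, adjusted p = 3.65e-08), as did Miox, which opens inositol catabolism, in MYC tumours (log2 change -10.48 ± 0.29, adjusted p = 4.15e-07). Endothelial genes were called lower for 6, 5 and 6 of 6 in MYC, VM and VIM tumours, with sums of 3674 to 6287 units in kidney against 199 to 1537, 267 to 2091 and 475 to 1067 units. Erythroid genes were lower for 4, 3 and 3 of 5, fibroblast and mural genes for 1, 5 and 2 of 7, and 1 of 4 platelet genes was higher in each genotype. Over all genes, 17.7%, 22.5% and 20.7% were called lower and 19.4%, 17.3% and 18.9% higher in MYC, VM and VIM tumours. The part of these marker differences in the leukocyte values was not tested.

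**Figure D1:**
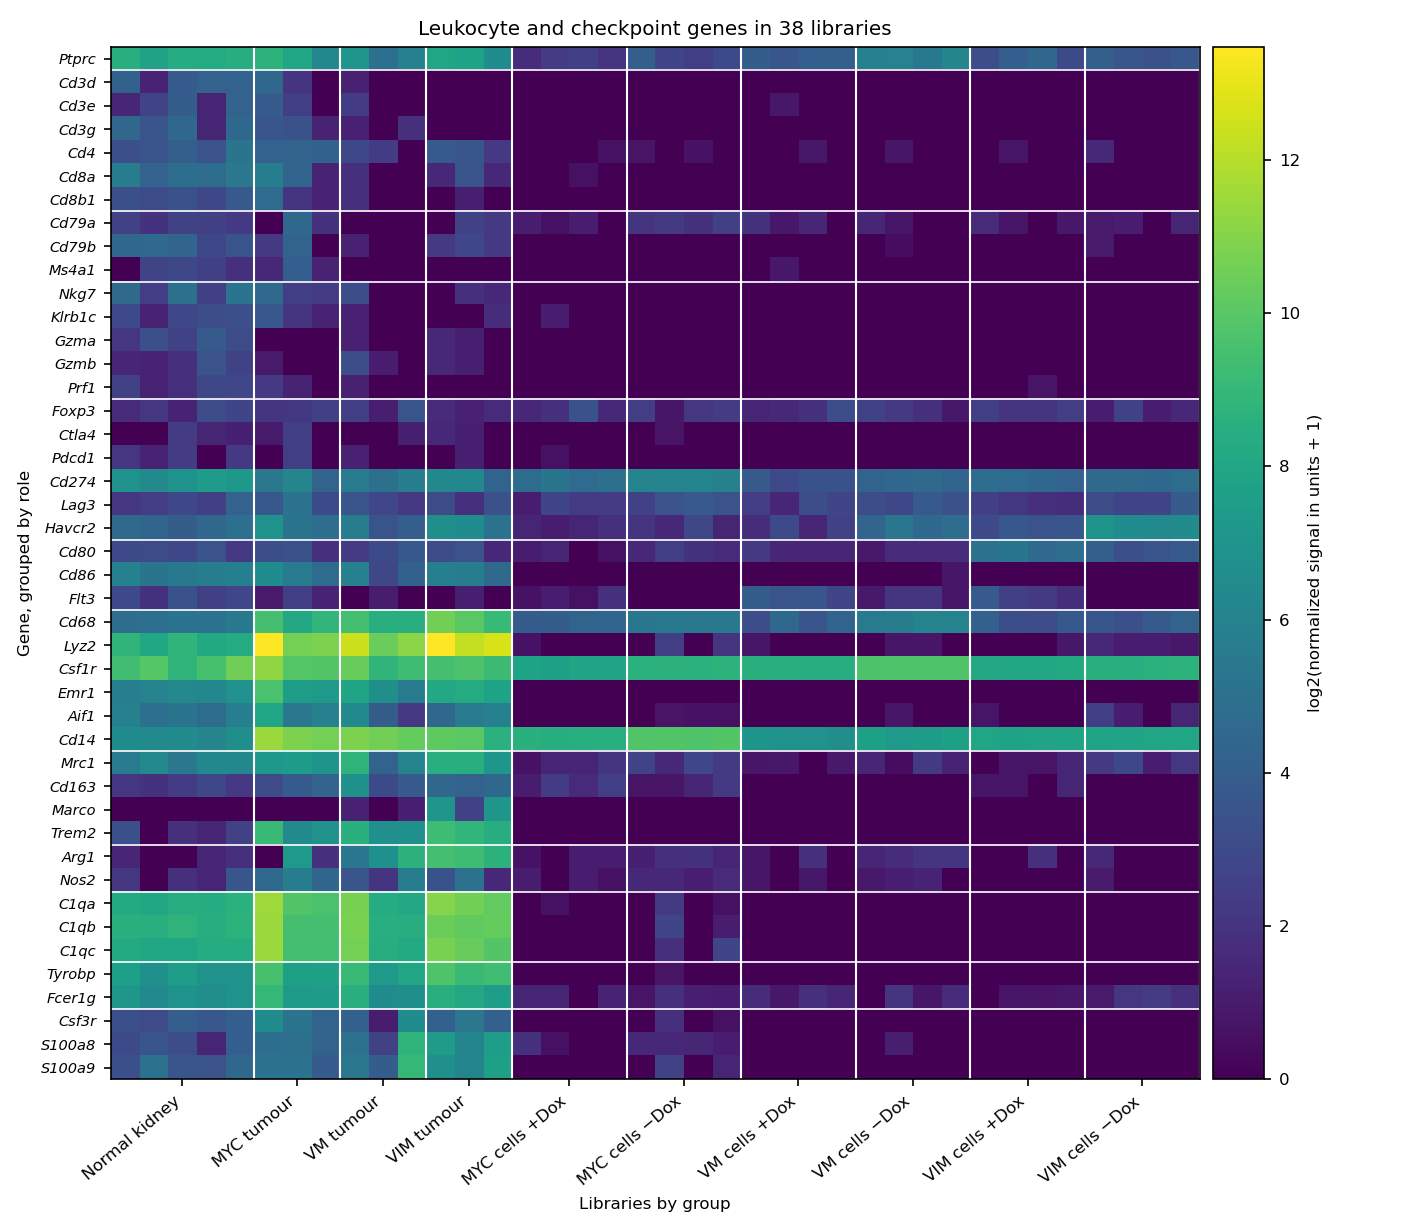
Heat map of log2(normalized signal in units + 1) for the 44 genes found (rows, grouped by role, separated by white lines) in the 38 libraries (columns, grouped by tissue or cell line and Dox). Rows for Lyz2 and C1q are bright in the tumour columns, the T and B cell rows fade from kidney to VM and VIM tumours, and the cell line columns are dark except for Csf1r, Cd14, Cd68, Cd274, Ptprc, Havcr2 and a few faint rows.

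Against normal kidney, all 3 tumour genotypes had more transcript of the macrophage genes Cd68, Lyz2, Cd14 and Trem2 and less of Cd274. Not every macrophage gene rose, as Csf1r and Aif1 were called in no genotype and Emr1 and the C1q genes not in VM tumours. Cd14 and Cd68 were also read in every cell line, as given below. T cell genes fell in VM and VIM tumours, whereas in MYC tumours Gzma, a gene of few reads, was the only T, B or NK cell gene called. In MYC tumours 13 of 43 genes tested rose and 2 fell, beside backgrounds of 19.4% and 17.7% of all genes called in each direction. In VM tumours 6 of 44 rose and 15 fell, against 17.3% and 22.5%. In VIM tumours 17 of 44 rose and 13 fell, against 18.9% and 20.7%. As a share of genes tested, members exceeded the background for higher calls in MYC and VIM tumours and for lower calls in VM and VIM tumours, and were below it for lower calls in MYC tumours and higher calls in VM tumours. The lower calls rested largely on genes of low signal. With a pseudocount of 10 there were 5 higher and 6 lower in VM tumours and 17 and 5 in VIM tumours, and among the 27 members with a mean of at least 10 units 6 and 6 in VM and 17 and 4 in VIM tumours. The shares of all genes given above belong to the main setting and are not compared with these recounts. The median log2 change over the members was 0.36, -0.10 and -0.13 in MYC, VM and VIM tumours, beside 0.12, -0.05 and 0.01 over all genes tested. TMM rescaling and quantile normalization placed the all-gene median at 0.03 and 0.09 in MYC, -0.06 and 0.12 in VM and -0.04 and 0.05 in VIM tumours.

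The counts depended on the kidneys and tumours used. Called either way were 15, 21 and 30 members, against 37.1%, 39.8% and 39.6% of all genes. Those shares belong to the main setting and are not compared with the counts under other settings below. With the kidneys titled B6 alone, 10, 18 and 25 members were called in MYC, VM and VIM tumours, and with those titled KT alone 11, 17 and 25. Calls lost with the B6 kidneys alone were those of C1qb, Csf3r, Emr1, Fcer1g and Tyrobp in MYC, of Cd163, Cd4 and Prf1 in VM and of Cd274, Fcer1g, Gzma and Havcr2 in VIM tumours. With the KT kidneys alone they were those of Csf3r, Fcer1g, Mrc1 and Nos2 in MYC, of Cd163, Cd3g, Cd4 and Nkg7 in VM and of Cd274, Cd79b, Havcr2, Klrb1c and Nkg7 in VIM tumours. A pseudocount of 10 ended the calls of Gzma in all 3 genotypes, of Cd8b1, Flt3, Klrb1c, Ms4a1 and Prf1 in VM and VIM tumours, of Cd163, Cd4, Cd79a and Nkg7 in VM tumours and of Cd3e and Cd79b in VIM tumours. Without the filter Fcer1g, Nos2 and Tyrobp were not called in MYC tumours, Cd163, Cd4, Ms4a1 and Nkg7 in VM tumours or Cd274 and Ms4a1 in VIM tumours, and Tyrobp was not called in MYC tumours under quantile normalization. In VM tumours the split moved from 6 higher and 15 lower to 10 higher and 14 lower under quantile normalization, and to 10 and 13 in edgeR on recovered reads. Without MYC tumour 1, which leaves a single MYC sample assumed to vary like the kidneys, 10 members were called in place of 15. That library had the highest signal of the 9 tumour libraries for 19 of the 38 members that reached 10 units in any tumour.

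Ptprc, which marks leukocytes as a whole, did not follow the macrophage genes. Its signal in the 5 kidneys was 346, 216, 325, 313 and 342 units. MYC tumours had 424, 248 and 77.7 units, a range that spans the kidneys. VM tumours had 132, 28.9 and 60.4 units, below every kidney (log2 change -2.29 ± 0.42, adjusted p = 0.00121). The VM line itself held 43.4 to 69.9 units of Ptprc without Dox and 11.1 to 15.8 on Dox, and the part of tumour cells in the tumour values was not tested. VIM tumours had 245, 226 and 93.6 units, and 2 of the 3 lay inside the kidney range (log2 change -0.81 ± 0.33, adjusted p = 0.0639). The row Sfpi1, an older symbol of the lineage factor PU.1 that no member symbol matched, held 57.1, 24.8, 45.5, 24.4 and 36.7 units in kidney, 154, 52.5 and 41 in MYC, 103, 16.5 and 32.1 in VM and 97.9, 96.5 and 49.6 in VIM tumours.

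T cell genes were low in kidney and lower in VM and VIM tumours. The 3 CD3 genes lie side by side on chromosome 9 (mm9 44777655 to 44817673). Cd3g, an invariant chain of the T cell receptor complex, stood at 20.8, 10.2, 21.4, 1.63 and 21.5 units in kidney. It was 11.2, 9.26 and 1.41 units in MYC tumours, 1.33, 0 and 2.47 in VM tumours and 0, 0 and 0 in VIM tumours. The decrease was called in VM (log2 change -2.66 ± 0.79, adjusted p = 0.0162) and VIM tumours (adjusted p = 0.00202), in the latter at least 2.67-fold against the 3-read floor. Every VM tumour was also under 3 reads, so the fitted VM change depends on the pseudocount and is not a measured fold. Its partner Cd3d was 17.3, 1.46, 13.4, 17.9 and 17.7 units in kidney, 21.5, 3.09 and 0 in MYC, 1.33, 0 and 0 in VM and 0, 0 and 0 in VIM tumours, and fell in VM and VIM tumours by at least 3.39- and 2.4-fold. Cd3e varied among kidneys, at 1.73, 5.84, 14.7, 1.63 and 17.7 units, and among MYC tumours, at 14, 4.63 and 0 units. It was 3.99, 0 and 0 units in VM and 0, 0 and 0 in VIM tumours, a decrease called in VIM tumours alone (at least 1.47-fold, adjusted p = 0.00962), with an adjusted p of 0.0718 in VM tumours. Without VM tumour 2 the VM decrease of Cd3g had an adjusted p of 0.07.

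Of the coreceptors, Cd8a and Cd8b1 fell in VM and VIM tumours and Cd4 in VM tumours. Cd8a, the coreceptor chain of cytotoxic T cells, was 50.2, 17.5, 28.1, 26.1 and 39.2 units in kidney. MYC tumours had 52.2, 20.1 and 1.41 units, with 1 library just above the kidney range, 1 inside it and 1 far below. VM tumours had 2.66, 0 and 0 units, at least 8.06-fold lower (adjusted p = 0.00015), and VIM tumours 1.88, 10.03 and 1.84 units (log2 change -2.80 ± 0.57, adjusted p = 0.00235), with no overlap with kidney in either. Its partner chain Cd8b1 was 8.65, 7.3, 9.37, 6.51 and 12.7 units in kidney, 25.2, 3.09 and 1.41 in MYC, 2.66, 0 and 0 in VM and 0, 1.25 and 0 in VIM tumours, and fell in VM and VIM tumours by at least 2.23- and 1.57-fold. Cd4, the helper T cell coreceptor that mouse macrophages and dendritic cells can also carry, was 8.65, 10.2, 16.1, 9.77 and 35.4 units in kidney and 17.7, 18.5 and 16.9 in MYC tumours. VM tumours held 6.66, 4.12 and 0 units (log2 change -2.13 ± 0.73, adjusted p = 0.0316) and VIM tumours 13.2, 11.3 and 3.67 units (adjusted p = 0.36). The VM call for Cd4 was lost without VM tumour 3 or without kidney 3 or 5, with adjusted p between 0.0579 and 0.124, and also in edgeR (adjusted p = 0.053) and under quantile normalization (adjusted p = 0.111).

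Of the 3 B cell genes, Cd79b fell in VM and VIM tumours, and the others were at or near the 3-read floor in most kidneys. Cd79b, a signalling chain of the B cell receptor, was 22.5, 23.4, 20.1, 6.51 and 10.1 units in kidney. It was 3.73, 18.5 and 0 units in MYC tumours, 1.33, 0 and 0 in VM tumours and 3.77, 6.27 and 3.67 in VIM tumours. VM tumours were at least 4.13-fold lower (adjusted p = 0.000437), and VIM tumours were lower by a smaller margin (log2 change -1.54 ± 0.51, adjusted p = 0.0287) that was lost without VIM tumour 1 or 3 or without kidney 1, 2 or 3, with an adjusted p of up to 0.0812. The other chain, Cd79a, was 5.19, 2.92, 5.35, 4.89 and 3.8 units in kidney, 0, 21.6 and 2.82 in MYC, 0, 0 and 0 in VM and 0, 5.01 and 3.67 in VIM tumours, and was called lower in VM tumours (adjusted p = 0.000444), although 4 of the 5 kidneys were at or under 3 reads. Ms4a1, which encodes the B cell antigen CD20, was 0, 5.84, 6.69, 4.89 and 2.53 units in kidney and 1.87, 15.4 and 1.41 units in MYC tumours, and 0 in each VM and VIM tumour. Its lower calls in VM (adjusted p = 0.0262) and VIM tumours (adjusted p = 0.029) rested on kidneys of which 2 were above the floor, and they were each lost without any single tumour of the genotype and without kidney 2, 3 or 4, with adjusted p of up to 0.0664 and 0.0737. MYC tumour 2 had the highest signal for all 3 B cell genes among tumours. Beyond the members, 3, 6 and 5 of the other B and plasma cell genes were lower in MYC, VM and VIM tumours, of 13, 13 and 14 tested. Over all genes the shares called lower were 17.7%, 22.5% and 20.7%. Igj, the J chain of secreted immunoglobulin, fell in VM tumours (log2 change -9.04 ± 0.60, adjusted p = 2.14e-06), from a mean of 2595 units in kidney to 4.21 units.

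Cytotoxic and NK genes were few reads deep. Nkg7, a granule membrane protein of cytotoxic cells, was 24.2, 4.38, 30.8, 4.89 and 34.2 units in kidney, 23.3, 4.63 and 4.24 in MYC, 7.99, 0 and 0 in VM and 0, 2.51 and 1.84 in VIM tumours. The decrease was called in VM (log2 change -2.90 ± 0.95, adjusted p = 0.0256) and VIM tumours (at least 3.48-fold, adjusted p = 0.0128). It was lost in VM tumours in edgeR (adjusted p = 0.0566) and without VM tumour 2 or 3 or kidney 1, 3 or 5, and in VIM tumours without VIM tumour 1, with adjusted p of up to 0.102 and 0.0627. Gzma, the granule protease granzyme A, was 3.46, 8.76, 5.35, 13 and 7.59 units in kidney and 0 in each MYC tumour, 1.33, 0 and 0 units in VM and 1.88, 1.25 and 0 in VIM tumours. It was called lower in all 3 genotypes, by at least 1.65-, 1.91- and 1.35-fold, but in none with a pseudocount of 10 (log2 changes -0.79, -0.73 and -0.65) and not in VIM tumours with the B6 kidneys alone (adjusted p = 0.137). Prf1, which encodes the pore-forming protein perforin, was 5.19, 1.46, 2.68, 6.51 and 6.33 units in kidney, 3.73, 1.54 and 0 in MYC, 1.33, 0 and 0 in VM and 0 in all VIM tumours, and was called lower in VM (adjusted p = 0.0127) and VIM tumours (adjusted p = 0.00291). Only 2 kidneys and no VM or VIM tumour exceeded 3 reads of Prf1, and with a pseudocount of 10 its changes were -0.45 and -0.51 log2, neither called. Klrb1c, the NK1.1 receptor of NK cells, was 6.92, 1.46, 6.69, 8.14 and 8.86 units in kidney, 11.7, 3.26 and 1.41 in MYC, 1.33, 0 and 0 in VM and 0, 0 and 2.31 in VIM tumours, and was called lower in the same pair, by at least 1.61- and 1.14-fold, although in VIM tumours not without VIM tumour 1 or 2 (adjusted p = 0.0521 and 0.0625). Gzmb, the protease granzyme B, was called in no genotype, at 1.73, 1.46, 2.68, 9.77 and 5.06 units in kidney and no more than 7.99 units in any tumour. The list of other T and NK cell genes was also read in the cell lines, so it is not particular to leukocytes here. It summed to 264 to 447 units in kidney and to 806 to 896, 510 to 573 and 471 to 535 in MYC, VM and VIM cells on Dox. The part of tumour cells in its counts was not tested. Of its genes, 1 of 22, 10 of 22 and 14 of 21 tested were lower in MYC, VM and VIM tumours, and 2, 1 and 0 were higher. Over all genes the shares were 17.7%, 22.5% and 20.7% lower and 19.4%, 17.3% and 18.9% higher.

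**Figure D2:**
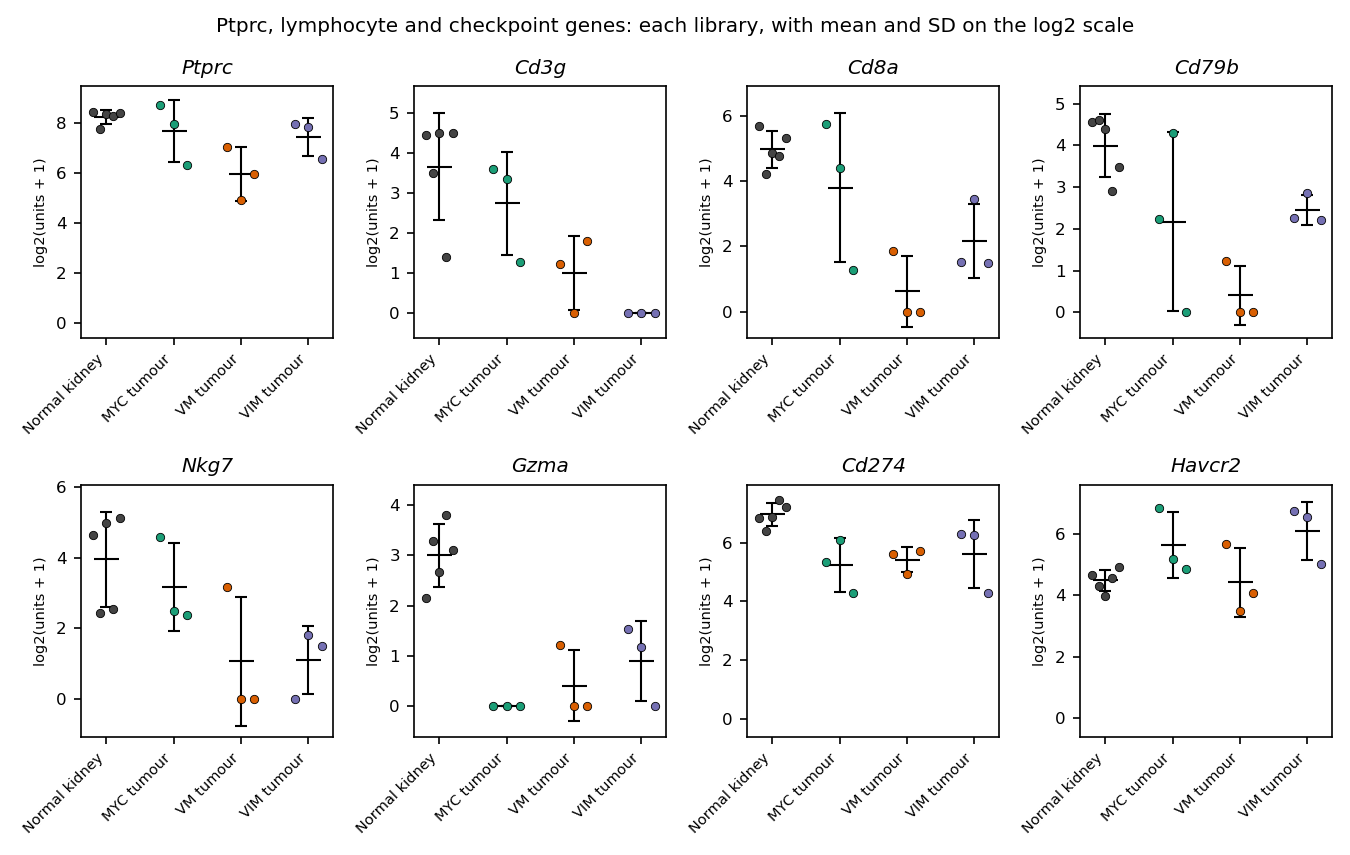
Signal of Ptprc, 5 lymphocyte genes, Cd274 and Havcr2 in each normal kidney and tumour library, on a log2(units + 1) axis, with points for libraries and bars for the mean and SD over libraries (MYC libraries 2 and 3 share an animal number). Cd3g is at 0 in the 3 VIM tumours and Gzma at 0 in the 3 MYC tumours, whereas every tumour keeps a Cd274 signal of at least 18.4 units.

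Among checkpoint genes, Cd274 fell in each genotype and Havcr2 rose in VIM tumours. Cd274 was 114, 83.2, 118, 176 and 147 units in kidney, above every tumour library. It was 39.2, 67.9 and 18.4 units in MYC (log2 change -1.57 ± 0.34, adjusted p = 0.00529), 47.9, 29.9 and 51.8 in VM (log2 change -1.53 ± 0.34, adjusted p = 0.00345) and 77.2, 76.4 and 18.4 in VIM tumours (log2 change -1.35 ± 0.49, adjusted p = 0.0417). The VIM call was lost without VIM tumour 3 or without any of kidneys 1, 3, 4 and 5, with an adjusted p of up to 0.106. Endothelial genes, whose sums are given above, were lower in the same tumours, and their part in the Cd274 values was not tested. Havcr2, which encodes the receptor TIM-3 of T cells and myeloid cells, was 24.2, 19, 14.7, 22.8 and 29.1 units in kidney and 115, 35.5 and 28.2 in MYC tumours (adjusted p = 0.0518). It was 50.6, 10.3 and 16 units in VM tumours and 105, 92.7 and 31.2 in VIM tumours (log2 change 1.61 ± 0.47, adjusted p = 0.0155), a call lost without VIM tumour 1 or 2 (adjusted p = 0.0521 and 0.0707). The VIM line itself held 85.7 to 114 units of Havcr2 without Dox and 6.94 to 11.8 on Dox, and the part of tumour cells in the tumour values was not tested. The T cell receptors Ctla4 and Pdcd1, the latter encoding PD-1, each had at most 4.63 units in any kidney or tumour, and no difference was detectable at this depth. Lag3, an inhibitory receptor of activated T cells, was 3.46, 4.38, 6.69, 4.89 and 17.7 units in kidney, 12.1, 34 and 7.06 in MYC, 10.7, 6.19 and 3.7 in VM and 7.53, 2.51 and 9.18 in VIM tumours, with no call. Foxp3, the factor of regulatory T cells, held at most 10.5 units in tissue and up to 9.39 units in the cell lines. Its gene model overlaps Ccdc22 and Ppp1r3f on the opposite strand and 4930524L23Rik on the same strand. Whether reads were counted by strand is not stated in the sources used here, and without strand these reads cannot be told apart.

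The costimulatory ligands Cd80 and Cd86, which antigen-presenting cells show to T cells, were called in no tumour genotype. Cd86 was 60.6, 35, 42.8, 48.9 and 55.7 units in kidney, 94.2, 46.3 and 25.4 in MYC, 57.3, 6.19 and 17.3 in VM and 54.6, 50.1 and 23.9 in VIM tumours, and its order over libraries resembled that of Ptprc (Pearson r = 0.92 on log2 values over 14 tissue libraries, a description in which groups share libraries and depth). Cd80 ranged from 1.84 to 12.3 units. Flt3, the growth factor receptor of dendritic cell precursors, was 6.92, 2.92, 9.37, 4.89 and 6.33 units in kidney, 0.933, 4.63 and 1.41 in MYC, 0, 1.03 and 0 in VM and 0, 1.25 and 0 in VIM tumours, and was called lower in VM (at least 1.52-fold, adjusted p = 0.00184) and VIM tumours (at least 1.08-fold, adjusted p = 0.00269), where 3 of the 5 kidneys exceeded 3 reads. Of 9 other dendritic cell genes, 2, 8 and 7 were lower in MYC, VM and VIM tumours and none was higher. Over all genes the shares were 17.7%, 22.5% and 20.7% lower and 19.4%, 17.3% and 18.9% higher.

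Cd68, Lyz2 and Cd14 rose in every tumour genotype. Cd68, a lysosomal glycoprotein, was 27.7, 29.2, 33.5, 34.2 and 43 units in kidney. It was 715, 281 and 469 units in MYC (log2 change 3.93 ± 0.35, adjusted p = 7.75e-05), 707, 342 and 355 in VM (log2 change 3.70 ± 0.33, adjusted p = 1.21e-05) and 1571, 1024 and 559.9 in VIM tumours (log2 change 4.82 ± 0.35, adjusted p = 6.32e-06). All 9 tumour libraries lay above all kidneys. Lyz2, which encodes the lysozyme of macrophages and neutrophils, was 455, 267, 449.8, 287 and 316 units in kidney. It reached 11299, 1609.6 and 1801 units in MYC (log2 change 3.66 ± 0.61, adjusted p = 0.00146), 5539, 1325 and 2234 in VM (log2 change 2.87 ± 0.40, adjusted p = 0.000211) and 11377, 4851 and 6531 in VIM tumours (log2 change 4.36 ± 0.29, adjusted p = 4.47e-06), and the MYC change was 2.30 without MYC tumour 1. Lyz1, a paralog with which it can share reads, was at most 54.6 units in these libraries. Cd14, the coreceptor for bacterial lipopolysaccharide, was 91.7, 81.8, 89.7, 70.03 and 104 units in kidney. It was 2768, 1782 and 1620.1 units in MYC (log2 change 4.63 ± 0.25, adjusted p = 8.97e-06), 1823, 1554 and 1238 in VM (log2 change 4.12 ± 0.20, adjusted p = 3.8e-07) and 1129.9, 1053 and 395 in VIM tumours (log2 change 3.15 ± 0.35, adjusted p = 6.2e-05), so that each VIM tumour lay below every MYC and VM tumour, a difference that did not pass the test between genotypes given below. The cell lines on Dox held 100 to 375 units of Cd14, and the part of tumour cells in its rise was not tested.

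Of the 3 other macrophage identity genes, Emr1 rose in MYC and VIM tumours, and Csf1r and Aif1 were called in none. Emr1, which encodes F4/80, was 53.6, 64.2, 79, 74.9 and 111 units in kidney and 790.1, 187 and 155 units in MYC tumours (log2 change 2.29 ± 0.55, adjusted p = 0.00863, adjusted p = 0.0537 without MYC tumour 1). It was 230.4, 103 and 46.9 units in VM tumours (adjusted p = 0.429) and 282, 315 and 226 units in VIM tumours (log2 change 1.86 ± 0.29, adjusted p = 0.000513). Csf1r, the receptor for the macrophage growth factor CSF-1, was 657, 956, 436, 739 and 1498 units in kidney, 2427, 965 and 929 in MYC, 1308, 448 and 629 in VM and 727, 836 and 593 in VIM tumours. Aif1, a calcium-binding protein of macrophages also called IBA1, was 60.6, 29.2, 34.8, 26.1 and 53.1 units in kidney, 241, 40.1 and 59.3 in MYC, 82.6, 14.4 and 3.7 in VM and 22.6, 45.1 and 56.9 in VIM tumours. The range of either gene overlapped that of kidney in every genotype. Within a library, the ratio of Cd68 to Ptprc units was 0.08 to 0.135 in kidney and 1.13 to 6.04, 5.36 to 11.9 and 4.54 to 6.42 in MYC, VM and VIM tumours, with no overlap between kidney and any tumour. Cd68 was also read in the cell lines, as given below. The ratio of Emr1 to Tyrobp, genes with no signal above 3 reads in any cell library, was 0.272 to 0.926 in kidney and 0.743 to 1.04, 0.191 to 0.662 and 0.327 to 0.56 in MYC, VM and VIM tumours, and each tumour range overlapped that of kidney.

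Promoter sequences were drawn from the RefSeq set of build GRCm38.p6, where 31 of the 44 members had 33 entries, and they are shown for Cd68, Trem2 and C1qc, which rose in MYC and VIM tumours, and for Cd8a, which fell in VM and VIM tumours. Each runs 5′ to 3′ on the gene's strand over 300 bases around the start. Capitals mark GAGGAA, a core that PU.1 is known to bind, or its reverse complement TTCCTC.
Cd68 (chr11:69666121-69666420, minus strand): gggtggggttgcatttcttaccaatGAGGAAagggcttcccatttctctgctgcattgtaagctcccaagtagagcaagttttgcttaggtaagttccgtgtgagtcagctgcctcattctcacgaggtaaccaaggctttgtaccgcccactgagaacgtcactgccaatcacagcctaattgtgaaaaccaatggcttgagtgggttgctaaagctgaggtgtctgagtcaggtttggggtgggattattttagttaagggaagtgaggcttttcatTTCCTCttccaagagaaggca
Trem2 (chr17:48346151-48346450, plus strand): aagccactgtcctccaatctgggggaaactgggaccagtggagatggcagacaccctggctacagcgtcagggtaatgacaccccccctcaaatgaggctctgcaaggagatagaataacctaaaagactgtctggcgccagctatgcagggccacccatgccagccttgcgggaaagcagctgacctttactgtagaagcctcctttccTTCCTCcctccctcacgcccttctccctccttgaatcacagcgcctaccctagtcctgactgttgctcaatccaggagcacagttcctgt
C1qc (chr4:136892865-136893164, minus strand): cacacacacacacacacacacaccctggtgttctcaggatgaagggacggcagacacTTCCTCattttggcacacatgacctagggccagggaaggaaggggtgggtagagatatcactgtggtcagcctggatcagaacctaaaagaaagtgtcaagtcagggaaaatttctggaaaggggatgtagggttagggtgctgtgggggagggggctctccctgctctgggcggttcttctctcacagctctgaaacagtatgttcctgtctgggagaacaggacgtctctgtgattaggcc
Cd8a (chr6:71373177-71373476, plus strand): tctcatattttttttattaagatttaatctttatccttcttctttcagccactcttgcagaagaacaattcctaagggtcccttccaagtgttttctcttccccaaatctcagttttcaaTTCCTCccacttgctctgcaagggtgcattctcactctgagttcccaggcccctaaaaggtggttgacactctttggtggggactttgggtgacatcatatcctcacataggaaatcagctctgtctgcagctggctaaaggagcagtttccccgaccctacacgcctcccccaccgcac
On either strand GAGGAA was present in 19 of the 33 member promoters (57.6%) and in 28.3% of all 32851 promoters of that length. Each promoter shown carries it, whereas those of Lyz2, Fcer1g, Cd163 and S100a9, which rose in VIM tumours, do not. The canonical E-box CACGTG, a sequence that MYC with MAX is known to bind, was in 1 member promoter, that of Flt3 (3.03%), and in 7.15% of all. The letters occur in a promoter of a gene that fell as well as in promoters of genes that rose, and a match is a description of the sequence, not of binding.

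Among scavenger and lipid receptor genes, Trem2 rose in every genotype and Marco in VIM tumours. Trem2, a lipid-sensing receptor of macrophages, was 8.65, 0, 2.68, 1.63 and 5.06 units in kidney. It was 570.0, 84.9 and 121 units in MYC (log2 change 6.10 ± 0.96, adjusted p = 0.00111), 369, 109 and 109 in VM (log2 change 5.53 ± 0.76, adjusted p = 0.000193) and 631, 469.9 and 334 in VIM tumours (log2 change 7.03 ± 0.68, adjusted p = 3.15e-05). Trem2 works through the adaptor Tyrobp, also named DAP12. The ratio of Trem2 to Tyrobp was 0 to 0.0439 in kidney and 0.42 to 0.75, 0.442 to 0.702 and 0.524 to 0.837 in MYC, VM and VIM tumours, on unit values without length correction and with no overlap. Marco, a scavenger receptor of a restricted set of macrophages, was 0 in each kidney and MYC tumour and 1.33, 0 and 1.23 units in VM tumours. It was 132, 5.01 and 141 units in VIM tumours, high in 2 libraries and low in VIM tumour 2, a mean at least 17.9-fold higher than kidney (adjusted p = 0.000763). Mrc1, the mannose receptor CD206, was 45, 78.8, 40.2, 78.2 and 77.2 units in kidney, 146, 167 and 124 in MYC (log2 change 1.24 ± 0.38, adjusted p = 0.0242) and 352, 342 and 132 in VIM tumours (log2 change 2.02 ± 0.41, adjusted p = 0.00245). VM tumours spread widely around kidney, at 430.1, 18.6 and 64.1 units (adjusted p = 0.709). Cd163, the haemoglobin scavenger receptor, was 3.46, 2.92, 4.02, 6.51 and 3.8 units in kidney, 7.46, 13.9 and 18.4 in MYC, 107, 7.22 and 13.6 in VM and 20.7, 17.5 and 22 in VIM tumours. It rose in VIM tumours (log2 change 2.07 ± 0.39, adjusted p = 0.0016), and its VM call (log2 change 2.23 ± 0.76, adjusted p = 0.0307) was lost without VM tumour 1 or kidney 1, 2, 3 or 5, with adjusted p of up to 0.0715. Without MYC tumour 1 the Mrc1 call of MYC tumours was lost as well (adjusted p = 0.0741).

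Of the arginine enzymes, Arg1 rose in VM and VIM tumours and Nos2 in MYC tumours. Arg1, arginase 1, which splits arginine to ornithine and urea, was 1.73, 0, 0, 1.63 and 2.53 units in kidney, at or under 3 reads in each. VIM tumours held 701, 629 and 404 units, at least 111-fold higher (adjusted p = 4.24e-06). VM tumours held 38.6, 108 and 403 units, at least 35.3-fold higher (adjusted p = 0.000138). MYC tumours held 0, 149.7 and 2.82 units, high in library 2 alone although library 3 carries the same animal number (adjusted p = 0.232). Nos2, inducible nitric oxide synthase, which uses the same substrate, was 3.46, 0, 2.68, 1.63 and 11.4 units in kidney and 23.3, 50.9 and 19.8 in MYC tumours (log2 change 3.08 ± 0.87, adjusted p = 0.0174). The call was lost with a pseudocount of 0.1 (adjusted p = 0.0728), without the filter (adjusted p = 0.051) and with the KT kidneys alone (adjusted p = 0.0615). It was 10.7, 3.09 and 50.6 units in VM and 9.42, 32.6 and 1.84 in VIM tumours, with no call and with 2 libraries of each genotype inside the kidney range.

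The complement C1q genes rose in MYC and VIM tumours. C1qa, C1qb and C1qc encode the chains of the complement recognition protein and lie together on chromosome 4 (mm9 136436044 to 136454718). C1qa was 306, 273, 336, 329 and 391 units in kidney and 2861, 901 and 781 units in MYC tumours (log2 change 2.25 ± 0.40, adjusted p = 0.00197). It was 2122, 1560.2 and 1226 units in VIM tumours (log2 change 2.29 ± 0.20, adjusted p = 1.88e-05) and 1688, 324 and 284 units in VM tumours, where library 1 stood far above the other 2, which overlapped kidney (adjusted p = 0.245). C1qb changed by 1.89 and 1.74 and C1qc by 2.24 and 2.12 on the log2 scale in MYC and VIM tumours, each called, and neither was called in VM tumours. Without MYC tumour 1 the change of C1qb in MYC tumours was 0.92, under the size threshold, and those of C1qa and C1qc were 1.37 and 1.24. The ratio of C1qa to C1qb units lay between 0.784 and 1.52 over the 14 kidney and tumour libraries. The adaptors Tyrobp and Fcer1g, which carry the activating ITAM motif for myeloid receptors, were called in the same genotypes. Tyrobp was 197, 108, 181, 116 and 120.2 units in kidney, 760.3, 202 and 209 in MYC (log2 change 1.49 ± 0.49, adjusted p = 0.0316), 534, 156 and 245 in VM (adjusted p = 0.0617) and 864, 561 and 637 in VIM tumours (log2 change 2.26 ± 0.27, adjusted p = 0.000101). Fcer1g was 138, 83.2, 116, 101 and 120.2 units in kidney, 495, 164 and 174 in MYC (log2 change 1.38 ± 0.41, adjusted p = 0.0216), 350.2, 91.8 and 104 in VM and 363, 276 and 179.9 in VIM tumours (log2 change 1.24 ± 0.29, adjusted p = 0.0051). Without MYC tumour 1 neither adaptor was called in MYC tumours (adjusted p = 0.293 and 0.195), and Tyrobp was not called without kidney 2 or kidney 4.

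The neutrophil genes S100a8 and S100a9 rose in VIM tumours and Csf3r in MYC tumours. The S100 genes encode the calprotectin chains of neutrophils and monocytes. S100a8 was 6.92, 10.2, 8.03, 1.63 and 15.2 units in kidney, 28, 30.9 and 18.4 in MYC and 171, 67.7 and 187 in VIM tumours (log2 change 4.02 ± 0.62, adjusted p = 0.000486). VM tumours held 32, 5.15 and 432 units, so that VM tumour 3 exceeded every other kidney and tumour and VM tumour 2 lay within kidney. Its partner S100a9 was 8.65, 32.1, 10.7, 9.77 and 22.8 units in kidney, 33.6, 34 and 14.1 in MYC, 39.9, 14.4 and 507 in VM and 107, 66.4 and 202 in VIM tumours (log2 change 2.86 ± 0.55, adjusted p = 0.00167). Csf3r, the receptor for the granulocyte growth factor G-CSF, was 8.65, 7.3, 16.1, 11.4 and 15.2 units in kidney and 93.3, 35.5 and 18.4 in MYC tumours (log2 change 2.07 ± 0.58, adjusted p = 0.0167, adjusted p = 0.155 without MYC tumour 1). It was 17.3, 1.03 and 92.5 units in VM and 16.9, 38.8 and 16.5 in VIM tumours, with no call. Of the other neutrophil and mast cell genes, 2 of 10, 3 of 9 and 7 of 10 tested were higher in MYC, VM and VIM tumours and none was lower. Over all genes the shares were 19.4%, 17.3% and 18.9% higher and 17.7%, 22.5% and 20.7% lower.

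**Figure D3:**
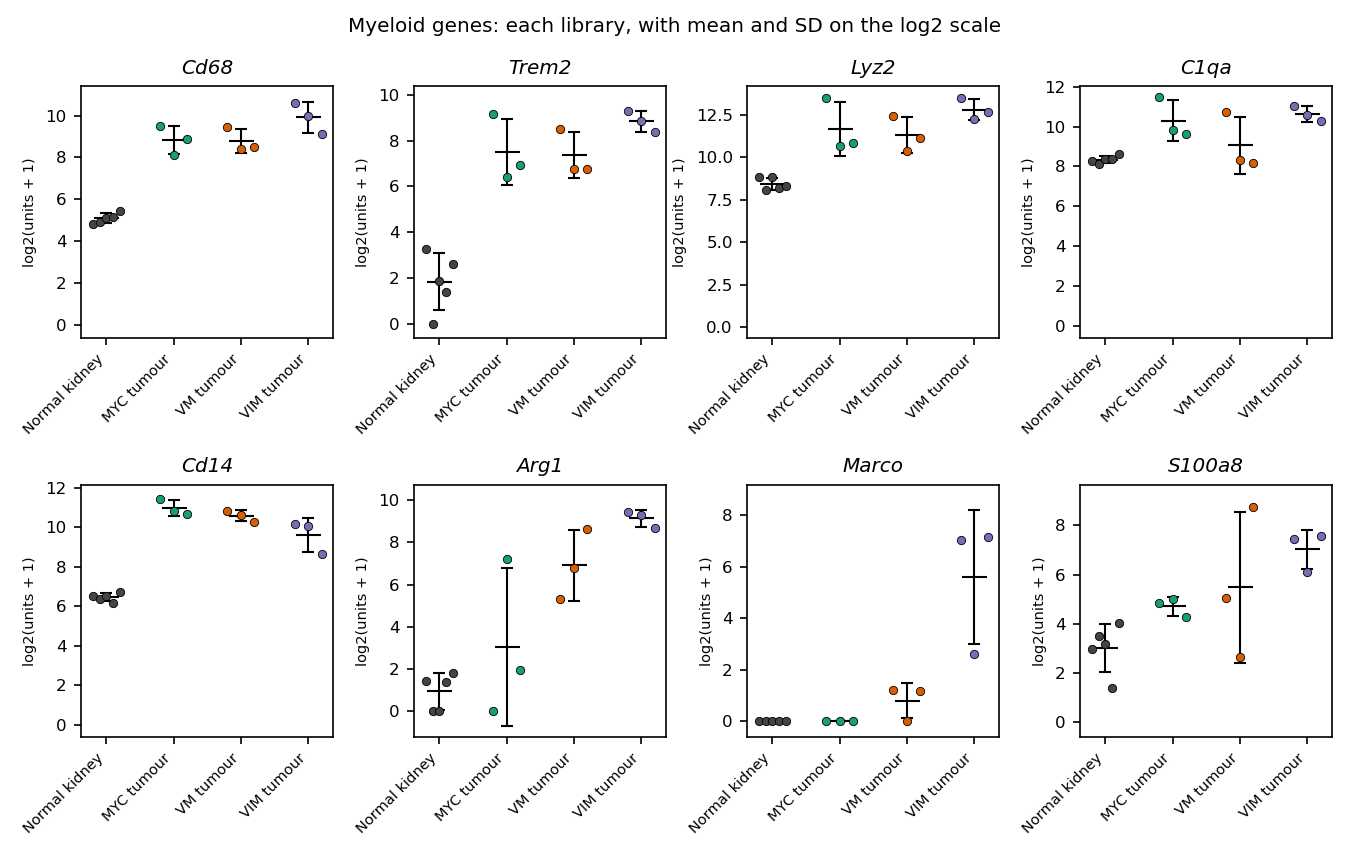
Signal of 8 myeloid genes in each normal kidney and tumour library, on a log2(units + 1) axis, with points for libraries and bars for the mean and SD over libraries (MYC libraries 2 and 3 share an animal number). Cd68, Trem2 and Lyz2 lie above kidney in all 9 tumour libraries, Marco is high in 2 VIM tumours only, and Arg1 is high in 1 MYC tumour library and in all VM and VIM tumours.

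Other macrophage and monocyte genes, 25 in the table, were higher for 10, 5 and 18 and lower for 2, 3 and 3 in MYC, VM and VIM tumours. Msr1, a scavenger receptor for modified lipoproteins, rose in MYC (log2 change 3.63 ± 0.59, adjusted p = 0.00125), VM (log2 change 3.29 ± 0.47, adjusted p = 0.000255) and VIM tumours (log2 change 5.14 ± 0.43, adjusted p = 1.33e-05). The integrin chain Itgam rose in MYC tumours (log2 change 3.64 ± 0.75, adjusted p = 0.00408), and Cd84, a SLAM family receptor, in VIM tumours (log2 change 4.26 ± 0.34, adjusted p = 1.11e-05). Of 16 other pan-leukocyte genes, 6, 1 and 4 were higher and 0, 4 and 2 lower. Beside both lists stand 19.4%, 17.3% and 18.9% of all genes called higher and 17.7%, 22.5% and 20.7% called lower. Outside all lists, the 5 genes with a tissue mean of at least 50 units whose pattern was most like Ptprc over the 14 kidney and tumour libraries were Lgals9, Gvin1, Lmo2, Il10ra and Wipf1, with Pearson r of 0.96, 0.96, 0.94, 0.94 and 0.94, given as a description among 12003 genes over libraries that share groups and depth.

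**Figure D4:**
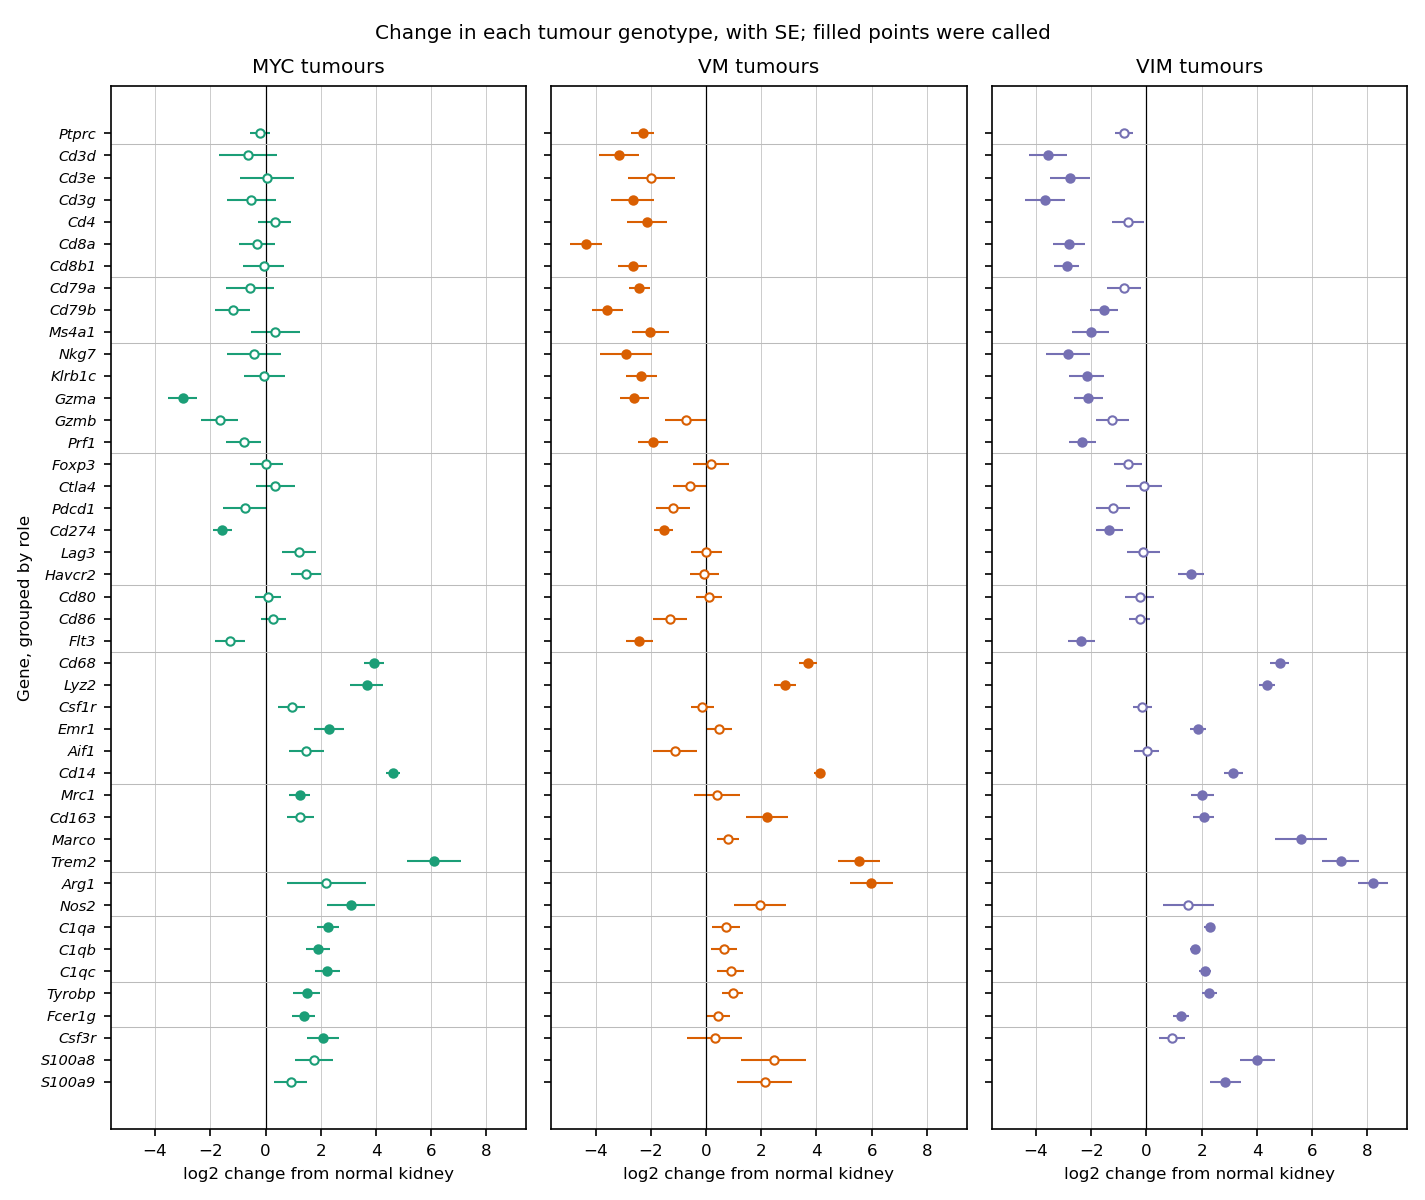
Log2 change of each gene from normal kidney in MYC, VM and VIM tumours (panels), with the standard error of the fit; filled points were called and open points were not. The T cell receptor and coreceptor genes, the B cell genes and the cytotoxic and NK genes lie left of 0 in VM and VIM tumours. Trem2, Cd68, Lyz2 and Cd14 lie right of 0 in all 3 panels.

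Between tumour genotypes, no member was called in limma, with 0 of 42 in VM against MYC tumours, 0 of 44 in VIM against MYC and 0 of 40 in VIM against VM, where 0%, 0.00616% and 0.249% of all genes were called. At an unadjusted p under 0.05 there were 7, 13 and 10 members, but the share of all genes at that threshold was not counted, so no difference is read from these numbers. With edgeR on recovered reads 0 members were called in each. When all 4 tissue groups shared 1 estimate of the spread, Cd8a was called lower in VM than MYC tumours (adjusted p = 0.0343). In that fit Arg1 and Marco were higher in VIM than MYC tumours (log2 change 6.0 ± 1.43, adjusted p = 0.037 for Arg1, adjusted p = 0.0163 for Marco), and Marco was higher in VIM than VM tumours (log2 change 4.80 ± 0.93, adjusted p = 0.0175). Without MYC tumour 2, Arg1 was also called between VIM and MYC tumours in the fit of those groups alone (adjusted p = 0.0398). The 3 comparisons share tumour libraries and each has 2 or 3 samples a side. Values for each gene are those given above.

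Compared with the cell line of the same genotype on Dox, each tumour genotype had higher signal for most of the leukocyte genes that could be tested. In MYC tumours 35 of 41 were higher and 0 lower, against 27% and 11.4% of all genes. In VM tumours 24 of 33 were higher and 1, Flt3, lower, against 28.4% and 12.3%. In VIM tumours 26 of 36 were higher and 2, Flt3 and Cd80, lower, against 32.6% and 13.3%. A member entered these fits mostly through its tumour signal, so these counts describe the genes that could be read. Without MYC tumour 1, 23 members could be tested against MYC cells and 20 were called. The all-gene median was 0.25, 0.32 and 0.41 in MYC, VM and VIM tumours against their cells, and -0.14, -0.17 and -0.19 after quantile normalization, under which 27, 17 and 21 members were higher and 0, 3 and 4 lower. Lower bounds on the fold, taken against 3 reads, were 1104, 291 and 675 for C1qa, 288, 118 and 284 for Tyrobp and 201, 74.3 and 197 for Trem2 in MYC, VM and VIM tumours.

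The cell lines were not free of every listed gene. Over the 24 cell libraries, 20 of the 44 members never exceeded the 3-read floor, 19 exceeded it in some libraries and 5 in all. Emr1, Trem2, Marco, Cd3d, Cd3g and Cd8b1 were at 0 in each, and Cd86, Tyrobp and Cd8a did not exceed 0.76, 0.658 and 0.542 units. Csf1r, Cd14, Cd68, Cd274 and Ptprc, by contrast, exceeded the floor in every cell library. Csf1r was 228, 198, 230.3 and 231 units in MYC cells on Dox, 379, 351, 334 and 331 in VM cells and 278, 269, 259 and 294 in VIM cells, and its gene model overlaps Hmgxb3 on the opposite strand. Cd14 was 375, 339.9, 357 and 356 units in MYC, 126, 116, 111 and 100 in VM and 237, 224, 232 and 235 in VIM cells on Dox. MYC cells withdrawn from Dox, replicates 2 and 4, held traces of C1q, Lyz2 and S100a9, at most 5.98 units for C1qc and 5.92 for C1qb, where the other 2 replicates were at 0. In the MYC line the 7 fibroblast and mural genes summed to 15936 to 18687 units on Dox and 67490.2 to 71904 without, against 5.26 to 8.87 and 29.98 to 50.1 in the VM line and 477 to 654 and 4754 to 5305 in the VIM line, and their part in the Dox differences below was not tested.

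Dox keeps the MYC transgene on in these lines, and most listed genes called between cells with and without Dox were lower on Dox. On Dox 7 of 17 members tested were lower and 1 higher in MYC cells, against 15% and 4.49% of all genes. In VM cells 6 of 15 were lower and 1 higher, against 18.9% and 5.92%, and in VIM cells 4 of 15 lower and 2 higher, against 16.6% and 7.67%. The median of all genes was -0.13, -0.26 and -0.15 log2 on Dox in MYC, VM and VIM cells and -0.02, -0.06 and -0.02 after TMM rescaling, and changes are read against that shift. The split was 1 higher and 2 lower in MYC cells and 3 higher and 1 lower in VIM cells under quantile normalization.

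Havcr2 fell on Dox in VM and VIM cells. In VIM cells it was 114, 91.4, 85.7 and 87.9 units without Dox and 6.94, 11.8, 9.84 and 11.3 units on Dox (log2 change -3.14 ± 0.19, adjusted p = 2.38e-12). In VM cells it was 20.3, 38.8, 22.5 and 27.3 units without and 2.22, 6.81, 1.7 and 5.26 on Dox (log2 change -2.59 ± 0.33, adjusted p = 1.41e-06), whereas MYC cells stayed at or under 6.37 units (adjusted p = 0.157). The Dox change differed from that of MYC cells in VM (difference of log2 changes -2.04 ± 0.46, adjusted p = 0.000573) and VIM cells (difference of log2 changes -2.59 ± 0.46, adjusted p = 3.61e-05) in a fit over all 24 libraries with a term for line by Dox, which was added after these values were seen. In that fit 3, 7 and 4 of 20 listed genes passed the same thresholds in VM against MYC, VIM against MYC and VIM against VM cells, beside 8.53%, 8.81% and 6.42% of all genes tested. Ptprc, present in the VM line at 59.1, 60.9, 43.4 and 69.9 units without Dox, was 14.8, 11.1, 15.3 and 15.8 units on Dox (log2 change -1.95 ± 0.19, adjusted p = 4.48e-08). In VIM cells it was 16.1, 11.1, 9.18 and 11.6 units without and 8.33, 15.3, 21 and 7.27 on Dox (adjusted p = 0.976), and the change differed between the VIM and VM lines (difference of log2 changes 1.96 ± 0.44, adjusted p = 0.000846). In MYC cells it was 15.7, 5.92, 4.63 and 7.07 units without and 2.24, 4.35, 4.88 and 3.14 on Dox, a change of -0.91 that did not reach the size threshold. Tyrobp, Cd3g and Emr1 were at 0 in all 8 libraries of the VM line, and Cd86 was at 0 in all but 1. The row Sfpi1, by contrast, held 5.29, 7.75, 10.9 and 9.12 units without and 7.39, 5.96, 1.7 and 2.63 on Dox there. Other pan-leukocyte genes summed to 34.9 to 56.6 units in that line without Dox, against 1191 to 1863 in kidney. Other macrophage and monocyte genes summed to 147 to 187 units, against 3474 to 4621 in kidney. The source of these signals was not tested.

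Cd274 and the macrophage genes Csf1r, Cd14 and Cd68 were lower on Dox in some lines. Cd274 was 64.3, 65.8, 67.1 and 57.1 units without and 25.7, 37, 25.5 and 29.9 on Dox in MYC cells (log2 change -1.10 ± 0.14, adjusted p = 1.01e-06). It was 18.5, 22.5, 24 and 19 units without and 13.3, 6.81, 9.34 and 9.65 on Dox in VM cells (log2 change -1.06 ± 0.23, adjusted p = 0.000528). In VIM cells it was 24.7, 24.5, 22.4 and 25.7 units without and 27.8, 25, 21.7 and 17.8 on Dox (adjusted p = 0.687). After TMM rescaling both changes were under the size threshold, at -0.98 and -0.86 log2. Both calls were also lost with a pseudocount of 10, under quantile normalization and in edgeR. The VM call was lost as well without Dox replicate 2 or off-Dox replicate 3, at -0.99 and -0.91 log2. Cd68 was 38.1, 42.1, 41.1 and 43 units without and 14, 14.7, 19 and 19.9 on Dox in MYC cells (log2 change -1.25 ± 0.16, adjusted p = 1e-06). It was 46.7, 51.2, 63.6 and 64.6 units without and 8.13, 22.1, 11 and 19.3 on Dox in VM cells (log2 change -1.92 ± 0.26, adjusted p = 2.28e-06). In VIM cells the Cd68 values overlapped, at 11.4, 8.92, 13.3 and 18.2 units without and 17.4, 8.32, 7.87 and 12.1 on Dox. Cd14 fell on Dox in MYC cells, from 911, 905, 867 and 917 units without (log2 change -1.33 ± 0.04, adjusted p = 7.33e-16), and Csf1r in VM cells, from 834, 869, 862 and 872 units without (log2 change -1.30 ± 0.06, adjusted p = 6.41e-13). Csf1r changed by -0.85 and -0.46 log2 in MYC and VIM cells, under the size threshold. In VIM cells Cd14 was 233, 229.7, 250.0 and 237 units without Dox, beside the values on Dox given above (adjusted p = 0.68).

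Few listed genes were higher on Dox. Flt3 was called in each line, at 14.8, 10.2, 11 and 6.14 units on and 0.882, 3.1, 3.1 and 0.76 units off Dox in VM cells (log2 change 2.02 ± 0.37, adjusted p = 7.75e-05). In VIM cells it was 12.5, 4.85, 3.94 and 2.42 units on Dox and 0 without (at least 1.77-fold, adjusted p = 1.95e-05), and in MYC cells at most 2.62 units on Dox and 0 without, above the 3-read floor in 1 library. Cd80 was 33.3, 36.7, 23.6 and 26.7 units on and 16.1, 8.92, 10.2 and 13.3 units off Dox in VIM cells (log2 change 1.26 ± 0.23, adjusted p = 5.44e-05), and at most 4.61 units in the other lines. With a pseudocount of 10 the calls of Flt3 in every line and of Cd80 in VIM cells were lost. Cd80 was called lower on Dox in MYC cells, at 1.12, 1.63, 0 and 0.524 units on and 1.97, 4.61, 2.89 and 2.18 off. That change of -1.15 was under the size threshold without Dox replicate 3 or off-Dox replicate 2 (-0.96 and -0.89). The remaining calls on Dox were decreases of genes near the floor. They were Cd79a, Lag3 and Mrc1 in MYC cells, Arg1 in VM cells, and Mrc1, Fcer1g and Lag3 in VIM cells, all at most 14.1 units in each library of those lines. All of these but Cd79a rested on single libraries. In MYC cells the change of Lag3 was -0.79 without Dox replicate 1, and that of Mrc1 lay between -0.87 and -0.76 without Dox replicate 1 or off-Dox replicate 1 or 3. In VM cells the call for Arg1 was lost without Dox replicate 2 or 4 or off-Dox replicate 3 or 4, with an adjusted p of up to 0.0768. In VIM cells the call for Mrc1 was lost without off-Dox replicate 2 (adjusted p = 0.0563) and that for Fcer1g without Dox replicate 1 or off-Dox replicate 3 (adjusted p up to 0.0594). Lag3 in VIM cells changed by -0.98 to -0.80 without Dox replicate 3 or 4 or off-Dox replicate 4.

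**Figure D5:**
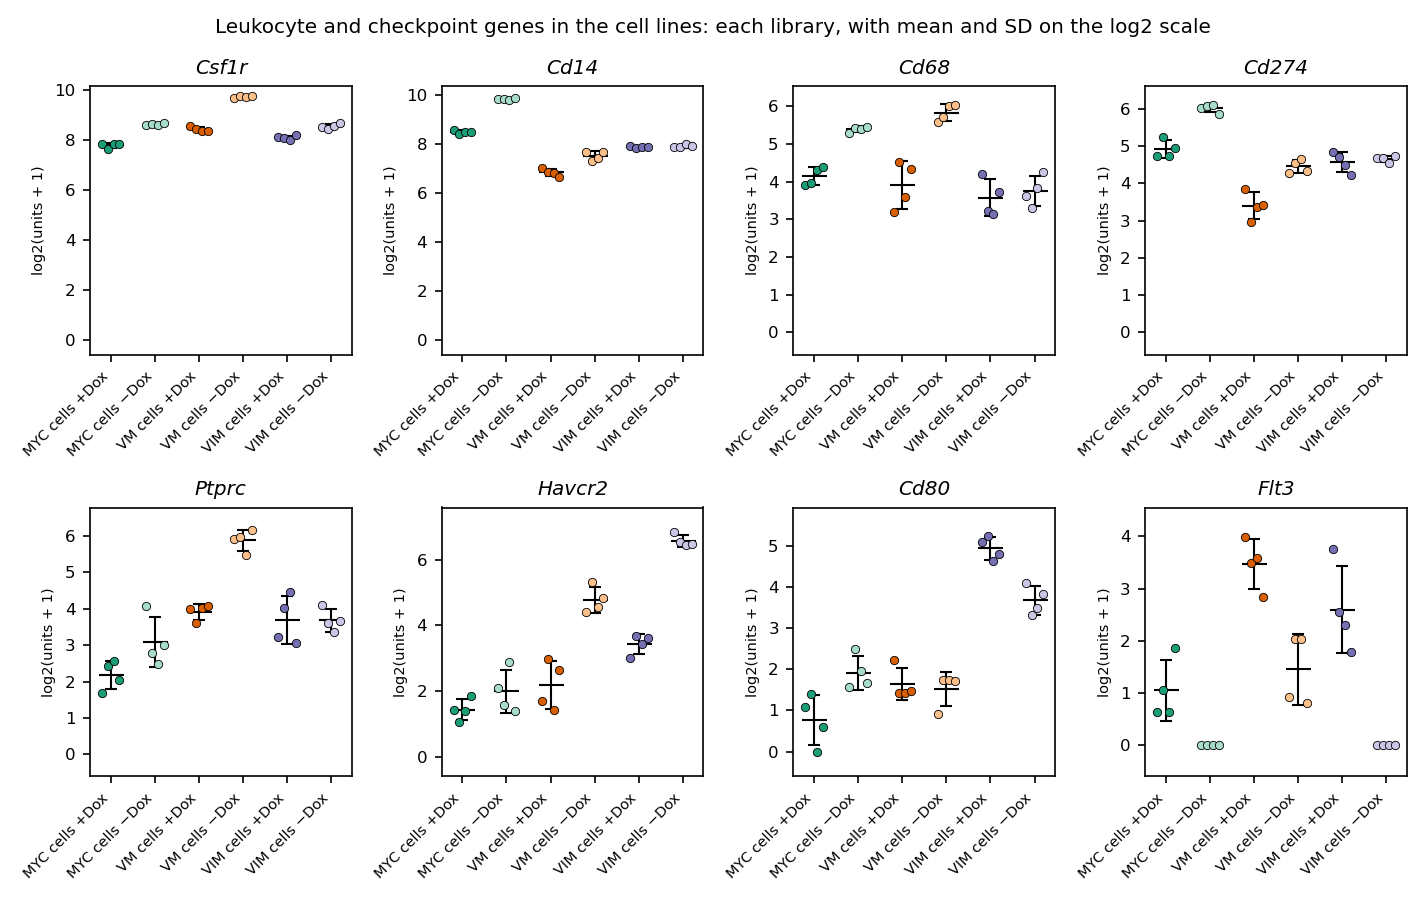
Signal of 8 listed genes in the MYC, VM and VIM cell lines with and without Dox, 4 libraries a group, on a log2(units + 1) axis, with points for libraries and bars for the mean and SD. Havcr2 is lower with Dox in VM and VIM cells, Ptprc is highest in VM cells without Dox, and Flt3 is at 0 in the 4 libraries of MYC and of VIM cells without Dox.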

How the data were processed

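Polyadenylated RNA of 38 libraries was sequenced from stranded mRNA preparations. Per the paper's methods the authors aligned reads to mm9 with MapSplice, profiled the alignments with Picard (version 1.64 in the submitters' notes), sorted them with SAMtools, removed unsuitable alignments with UBU, estimated gene abundance with RSEM on UCSC knownGene models, and scaled the upper quartile of each library to 1000. The deposited values are this normalized signal. Whether counting used strand is not given in the sources used here. The 44 genes and all other lists were chosen with earlier results of these data known. Groups came from the sample titles and genotype labels, and all 38 table columns were matched by title.

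Tests were run on the whole table with limma 3.58.1 (R 4.3.3) on log2(signal + 1), with a trend and empirical Bayes moderation, two-sided, with Benjamini-Hochberg adjustment over all genes tested, and a gene was called at an adjusted p under 0.05 and an absolute log2 change over 1. Each fit held the 2 groups compared, and genes above 0 in at least 2 samples (tissue) or 4 libraries (cells with and without Dox) entered it. MYC tumour libraries 2 and 3, which carry 1 number, were averaged first. Errors given as ± are standard errors of the fit, with 5 kidneys, 2 MYC, 3 VM and 3 VIM tumours and 4 cell libraries a group. Steps between low values gave the signal of 1 read in each library, and 94.1 to 95.9% of values under 20 reads were whole within 0.02 reads. A signal of 3 reads was taken as the floor, which covers counting error only, and folds against a group at or under it are given as lower bounds. Fitted log2 changes of genes near it depend on the pseudocount. These reads also entered edgeR 4.0.16 (quasi-likelihood) as an alternative. Known changes were recovered in simulated counts. That check is not read as covering genes near the 3-read floor or fits with 2 MYC samples. Alternatives were other pseudocounts (0.1 and 10), no filter or a mean of at least 10 units, TMM and quantile scaling, leaving out each library, kidneys titled B6 or KT alone, 1 fit over all 4 tissue groups, MYC libraries entered singly, cells without Dox as the reference, and the replicate numbers as a block. A fit over the 24 cell libraries with a line-by-Dox term was chosen after the data were seen. Promoters and motifs were read from RefSeq on GRCm38.p6 on both strands, and gene positions are those of mm9. Per-sample values are given for every gene called and for genes above 10 units in a cell group, from each other list the at most 2 called genes with the largest change and a mean of at least 50 units per comparison are named, and beside them the 5 genes most correlated with Ptprc in tissue.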

Additional observations from a re-analysis of the deposited data

Results flagged for a closer look

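Of 56 groups of 4 or 5 libraries in which a listed gene was read, 4 held a library far from the others, where chance gives about 1 in 20. Kidney 2 was low for Ptprc, at 216 units against 313 in the next kidney, and for Cd3d, at 1.46 units against 13.4. Kidney 5 was high for Cd4, at 35.4 units against 16.1. MYC cells on Dox, replicate 2, were low for Csf1r, at 198 units against 228. The calls for Ptprc and Cd3d against kidney were kept when kidney 2 was left out, and the loss of the Cd4 call without kidney 5 is given above.

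The change on Dox differed between cell lines for 14 of the gene and line pairs tested in limma over 16092 genes, 20 of them listed here, by a line-by-Dox term. These were 4, 3 and 7 of 20 listed genes in VIM against VM, VM against MYC and VIM against MYC cells, where 6.42%, 8.53% and 8.81% of all genes passed. VIM cells differed from VM cells by 1.73 log2 for Cd68 (adjusted p = 0.000632), 1.14 for Cd80 (adjusted p = 0.0381), -1.54 for Fcer1g (adjusted p = 0.0325) and 1.96 for Ptprc (adjusted p = 0.000846). VM cells differed from MYC cells by 2.04 for Cd79a (adjusted p = 0.00442), 1.27 for Cd80 (adjusted p = 0.0167) and -2.04 for Havcr2 (adjusted p = 0.000573). VIM cells differed from MYC cells by 1.3 for Cd14 (adjusted p = 4.93e-11), 1.0 for Cd274 (adjusted p = 0.00302), 1.06 for Cd68 (adjusted p = 0.0245) and 1.49 for Cd79a (adjusted p = 0.037). The same pair of lines differed by 2.4 for Cd80 (adjusted p = 3.79e-05), 1.55 for Flt3 (adjusted p = 0.0144) and -2.59 for Havcr2 (adjusted p = 3.61e-05). Each line came from 1 tumour, so line and genotype cannot be told apart. Over all cell libraries Cd79a and Fcer1g did not exceed 4.9 and 4.08 units, and Cd80 did not exceed 4.61 units in MYC and VM cells.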

How the results depend on the processing

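Of 2797 recomputed values of 175 calls on named genes, 2561 kept direction and call, 232 kept the direction and lost the call, and 4 reversed. The reversals were in tumours against their cells: Cd80 in VM tumours under quantile normalization (-0.48), and, against cells without Dox, Csf1r (-0.26) and Havcr2 (-0.35) in VM and Havcr2 (-0.47) in VIM tumours. In the counts of members called, a pseudocount of 10 gave 11 in VM tumours against kidney (5 higher, 6 lower), 23 in MYC tumours against MYC cells, and 1, 4 and 1 for Dox in MYC, VM and VIM cells. A filter at a mean signal of 10 units gave 12 in VM tumours against kidney (6 higher, 6 lower), 19 in MYC tumours against their cells, and 3 and 2 for Dox in MYC and VIM cells, with fewer genes tested. Quantile normalization gave 3 for Dox in MYC cells. One fit over all 4 tissue groups gave 1, 2 and 1 between VM and MYC, VIM and MYC, and VIM and VM tumours. The cause of these moves was not tested, and the shares of all genes under these settings are not given beside them.

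Leaving out 1 library gave 10 to 19, 17 to 23 and 26 to 29 calls in MYC, VM and VIM tumours against kidney. It gave 20 to 35, 24 to 27 and 28 to 32 against their cells, and 6 to 8, 5 to 8 and 4 to 6 for Dox in MYC, VM and VIM cells. Between VIM and MYC tumours it gave 0 to 1 (1 without MYC tumour 2), and 0 in the other 2 tumour comparisons. Replicate numbers in the titles pair no samples by label. As a hint from the data, same-number correlations of deviations lay between -0.31 and -0.05 in VM cells and -0.06 and 0.11 in VIM cells, and 0 of 4 and 1 of 4 Dox libraries correlated best with their own number. With the replicate block 7 members were called for Dox in VM cells and 6 in VIM cells, as without it. Members under 3 reads, among them most lymphocyte genes in VM and VIM tumours, allow no finer statement than the lower bounds given.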
